A study of Rattus norvegicus with 16 samples.

Results

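Gene expression in rat liver was compared after 28 days of N-nitrosodiethylamine (NDEA) and after 28 days of dosing without it. All genes with at least 10 counts in 4 or more of the 8 liver libraries were compared, 9757 of the 32623 gene records in the deposited table. The series also holds 8 bone marrow libraries, which enter here only in an alternative fit. The study's question was how NDEA acts in both tissues beside its mutagenicity. The control group was dosed at 0 mg/kg/day by gavage and the NDEA group at 10 mg/kg/day, with 4 liver libraries in each group, and the rats were killed 3 days after the last dose. Both groups were female Big Blue rats (the strain is spelled Blig Blue in 14 of the 16 sample labels), which carry a transgenic vector with the cII and lacI reporter genes. They arrived at 6 weeks of age, had 1 week of acclimation and were housed 3 to a cage. The labels describe treated rats in groups of 6 but tie no library to a cage, so p-values measure the spread between these libraries.

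NDEA is a nitrosamine that causes liver tumours in rodents. Hepatocytes convert it to an ethylating agent, mainly through the cytochrome P450 Cyp2e1, and the ethylated bases are removed by direct reversal or excision. Damaged DNA activates the transcription factor p53, whose targets arrest the cell cycle, and surviving hepatocytes can divide to replace lost cells. In rats treated with such carcinogens, altered foci of hepatocytes are recognised by the placental glutathione S-transferase Gstp1.

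Liver libraries held 5000844 to 6863592 counts. Values below are CPM, counts per 1000000 counts of the tested genes after scaling by trimmed means of M values, and a log2 fold change is NDEA over control. The libraries came from the 3' ends of transcripts, so a count does not scale with transcript length, and genes with near-identical 3' ends (the Cyp2c, Gst and Ugt2b families, MHC class II) may share reads. Detected genes numbered 10545 to 11322 in control and 11032 to 11855 in NDEA livers. Control 4 and NDEA 3 were lowest within their groups and stood apart from the rest on the second principal component. Mitochondrially encoded genes took 16.21% to 20.58% of counts in control livers against 20.09% to 22.36% after NDEA, and control 2 was the sole control within the NDEA range. In a fit with that share as a covariate, called the mitochondria-adjusted fit below, 151 genes were called instead of 644, and its counts are given beside the gene groups below. Of the 9757 genes 71 reached 10 counts in NDEA livers only and 8 in controls only, so the filter fixed their direction.

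Of 9757 genes tested, 644 (6.6%) were called at an adjusted p under 0.05 (limma-voom with Benjamini-Hochberg adjustment, two-sided). They comprised 282 genes that rose (2.89%) and 362 that fell (3.71%). A change of at least 2-fold was reached by 278 genes (2.85%), 178 that rose and 100 that fell. Scaled by library totals alone, the split turned to 392 higher and 239 lower, and the median over all tested genes moved from a log2 fold change of 0.01 to 0.125. All changes below are relative to the main scaling, whose median is near 0. The 2 groups did not overlap for 12.4% of all tested genes and for 582 of the 644 called. Without 1 library at a time, 435 (without control 3) to 591 (without control 2) genes were called. Without control 4 and NDEA 3 together, a choice made after seeing the data, 442 genes were called.

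**Figure D1:**
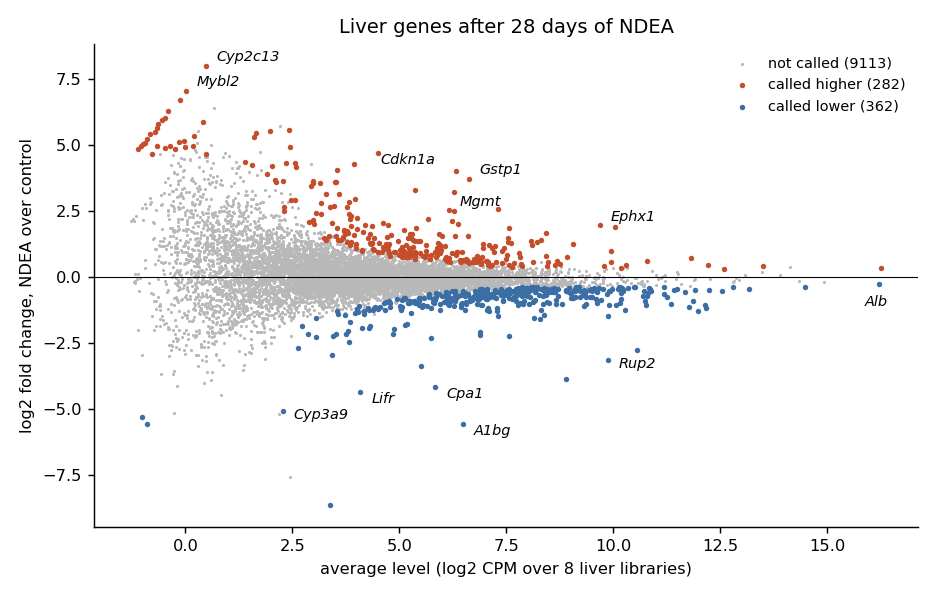
Log2 fold change (NDEA over control) against average log2 CPM for 9757 liver genes, with the 282 genes called higher in red, the 362 called lower in blue and all others in grey. The labelled genes are described in the text.

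Cdkn1a, Mgmt, Gstp1 and Ephx1 were all higher in every NDEA liver than in every control. Cdkn1a (chromosome 20, position 6351458 of the table), the p53 target p21 that blocks cyclin-dependent kinases, stood at 16.6, 47.8, 9.73 and 19.9 CPM in the control livers and 331, 377, 262 and 336 CPM in the NDEA livers. It rose by a log2 fold change of 4.02 ± 0.30 (SE; adjusted p = 2.3e-09, limma-voom). Mgmt (chromosome 1, position 209237233), which removes alkyl groups from the O6 position of guanine, stood at 26.6, 27.1, 36.6 and 28.0 CPM in the control livers and 177, 165, 169 and 183 CPM in the NDEA livers. Its change was 2.57 ± 0.19 (adjusted p = 2.2e-09, limma-voom), and its 4 NDEA values lay close together. Gstp1 (chromosome 1, position 219291679) stood at 24.7, 36.4, 33.0 and 18.4 CPM in the control livers and 135, 351, 489.9 and 689.6 CPM in the NDEA livers, a change of 3.71 ± 0.51 (adjusted p = 3.1e-05, limma-voom). Its NDEA livers spread widely, with NDEA 1 far below the other 3. Ephx1 (chromosome 13, position 99271366), the microsomal epoxide hydrolase, stood at 409.9, 493, 392 and 372 CPM in the control livers and 1537, 1709, 1671 and 1660 CPM in the NDEA livers, a change of 1.99 ± 0.10 (adjusted p = 2.6e-12, limma-voom). These 4 genes were called under every alternative run. In these bulk samples, a change in the number of cells of a type and a change in RNA per cell cannot be told apart.

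**Figure D2:**
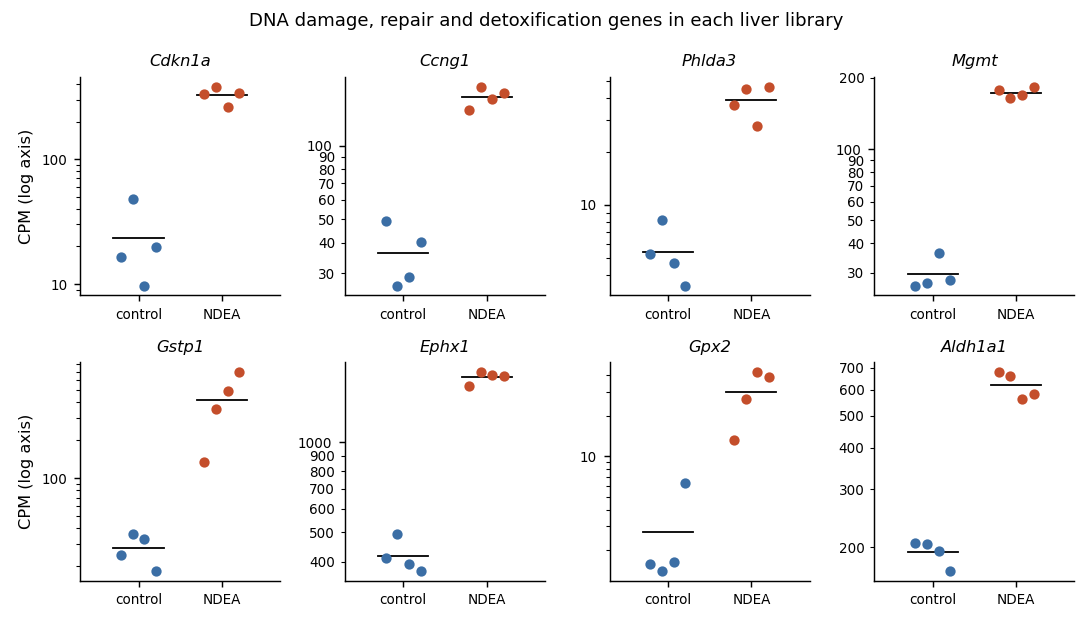
CPM on a log axis in each of 4 control (blue) and 4 NDEA livers (red) for 8 genes, with a line at each group's mean. No gene shown has overlapping groups, and NDEA 1 is the lowest NDEA liver for Gstp1 and Gpx2.

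Among 23 tested p53 targets, 8 rose and 0 fell, with a median log2 fold change of 0.79 against 0.01 over all genes. Ccng1, a cyclin G that recruits a phosphatase to Mdm2, stood at 49.0, 26.8, 29.0 and 40.2 CPM in control and 139.7, 174, 155 and 164 CPM in NDEA liver. Mdm2, the ubiquitin ligase that degrades p53, stood at 13.6, 17.5, 27.2 and 18.4 CPM in control and 59.3, 79.2, 59.5 and 59.8 CPM in NDEA liver. Phlda3, an inhibitor of Akt signalling, stood at 5.31, 8.23, 4.68 and 3.50 CPM in control and 36.5, 45.4, 27.9 and 46.3 CPM in NDEA liver. Every NDEA liver lay above every control for these 3 genes and for 10 of the 23 in all, against 6.51% of all tested genes. Btg2, an antiproliferative gene, rose by 2.19 ± 0.29, and Perp, Aen and Plk2 rose by 1.11, 1.74 and 0.77. Members that missed the threshold included the death gene Bax (1.03 ± 0.51; adjusted p = 0.29, limma-voom) and the death receptor Fas (1.18 ± 0.39; 0.071). In the mitochondria-adjusted fit 3 of the 23 were called higher.

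Mgmt was the sole called gene of 19 tested for direct reversal and base excision repair (5.3%, against 6.6% of all genes tested), by limma-voom. Of these 19 estimates 15 were above 0 and 4 below, and 3 genes had NDEA livers above all controls. Of 16 genes for nucleotide excision and mismatch repair 0 were called, a list too short to set apart from that 6.6%. The glycosylases Mutyh and Ogg1 stood at 0.156, 0, 3.60 and 2.03 CPM in control and 5.66, 12.5, 6.89 and 4.20 CPM in NDEA liver and at 1.56, 1.40, 0 and 4.06 CPM in control and 5.04, 4.56, 5.91 and 7.49 CPM in NDEA liver respectively. Their NDEA livers lay above all controls, but neither passed the threshold (adjusted p = 0.15 and 0.21, limma-voom). Of 16 recombination, Fanconi and checkpoint genes 2 rose (12.5%, against 6.6% of all genes called), 15 estimates were above 0 and the median was 1.17. Fancb, a subunit of the Fanconi core complex, had 0 counts in all controls and 2.14, 4.18, 3.52 and 3.60 CPM in the NDEA livers, at least 25.6-fold higher when 3 counts in the control group as a whole are taken as the floor. Fancb passed the filter through NDEA livers only, so the filter fixed its direction. The 2 rises, the 15 estimates above 0 and the median of 1.17 include Fancb. H2afx, the histone that is phosphorylated at strand breaks, rose by 1.49 ± 0.45 (adjusted p = 0.047, limma-voom). Both calls were near the threshold and were lost when single libraries were left out, and neither was made in the mitochondria-adjusted fit. Fancb missed the threshold without any control liver (adjusted p 0.0865 to 0.114, limma-voom) and without NDEA 2 (0.0657) or NDEA 4 (0.0602). H2afx missed it without any single library, at 0.0542 to 0.144.

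Cell division genes rose together. Of 23 tested mitosis and spindle genes 17 rose and 0 fell, and all 23 estimates were above 0, with a median log2 fold change of 3.59. Ccna2 and Aurkb reached 10 counts in NDEA livers only, so the filter fixed the direction of these 2. Mki67, the proliferation antigen, stood at 2.65, 4.38, 4.33 and 4.79 CPM in the control livers and 29.3, 41.8, 28.4 and 46.6 CPM in the NDEA livers. Top2a, the topoisomerase that untangles replicated chromosomes, stood at 2.97, 17.5, 9.19 and 0.184 CPM in the control livers and 54.1, 85.4, 50.8 and 97.9 CPM in the NDEA livers. Cdc20, which activates the anaphase-promoting complex, stood at 5.93, 3.50, 3.24 and 1.29 CPM in the control livers and 32.2, 41.8, 36.0 and 52.9 CPM in the NDEA livers. The lowest NDEA value exceeded the highest control value for each, and for Top2a control 2 stood highest and control 4 lowest among the controls. The kinetochore gene Cenpf had the largest rise among called genes with an established symbol, no overlap and an average log2 CPM of at least 2 (5.58 ± 1.54; adjusted p = 0.028, limma-voom). The kinase Cdk1 changed by 4.19 ± 1.10, its partner Ccnb1 by 4.20 ± 1.24 and the microtubule-binding Ckap2 by 4.33 ± 1.09. The number called moved with the controls. It was 7 without control 1, 9 without control 2 and 8 without control 3. Cenpf, Ccnb1, Cdk1 and Ckap2 all missed the threshold without control 1 (adjusted p = 0.12, 0.129, 0.0812 and 0.0627, limma-voom), control 2 or control 3. Cenpf and Ccnb1 also missed it without control 4 (0.0537 and 0.0707), and Ccnb1 without NDEA 2 (0.061) or NDEA 4 (0.0532). The mitochondria-adjusted fit left 1 of the 23 called. Estimates stayed above 0 there, at 3.27 for Cenpf and 3.33 for Cdk1.

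Of 25 DNA replication and nucleotide supply genes 6 rose, and all 25 estimates were above 0 (median 1.20). Lig1, the ligase that joins Okazaki fragments, stood at 12.7, 23.8, 33.7 and 23.1 CPM in control and 81.8, 89.0, 71.2 and 78.4 CPM in NDEA liver. Tk1, a thymidine kinase of S phase, stood at 12.2, 12.6, 15.0 and 4.79 CPM in control and 48.1, 45.6, 44.4 and 27.7 CPM in NDEA liver. The groups did not overlap for either gene. The licensing factor Cdc6 had 0 counts in all controls and was at least 23.2-fold higher (from the same floor). Cdc6 reached 10 counts in NDEA livers only, so the filter fixed its direction. The other called members were Rfc3, Rrm1 and Dut, with changes of 1.56, 1.02 and 2.05. Without control 2, control 3, control 4 or NDEA 2 the count fell to 3, and to 2 in the mitochondria-adjusted fit. Among 20 regulators of G1 and of E2F 2 rose, in both fits (10.0% in the main fit, against 6.6% of all genes called). Mybl2, the activator that switches on genes of mitosis, had 0 counts in all controls and 13.0, 13.9, 10.1 and 10.0 CPM in the NDEA livers, at least 89.3-fold higher. Its direction, too, was fixed by the filter, since it reached 10 counts in NDEA livers only. Ccnd1, cyclin D1, stood at 178, 135, 136 and 70.1 CPM in control and 214, 316, 378 and 340.5 CPM in NDEA liver. Of 9 senescence genes 0 were called by limma-voom, a list too short to set apart from that 6.6%.

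**Figure D3:**
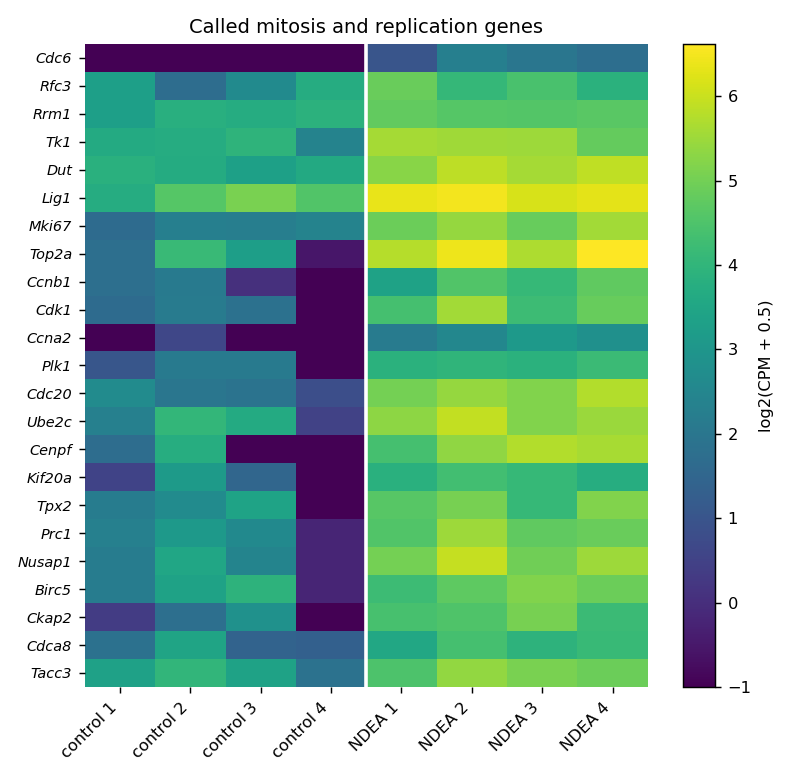
Log2(CPM + 0.5) of the 17 called mitosis genes and the 6 called replication genes in each of the 8 liver libraries. Colours are darker in all controls than in the NDEA livers in each row, and control 4 holds the most values at 0.

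Promoters of the called mitosis genes were searched because these genes moved together. Sequences are RefSeq's (GRCr8), 250 bases before to 50 after a gene's start, 5′ to 3′ on the gene's strand, and 14 of the 17 genes had an entry. The letters TTTGAA, on either strand, are those of the element through which the DREAM and MuvB complexes bind promoters of mitotic genes. They were found in 12 of the 14 promoters, against 18.3% of all 33469 promoters in the table and 12.4% of tested genes with an entry. CCAAT, the box bound by NF-Y, was found on either strand in 14 of the 14, against 37.5% of all promoters and 39.2% of tested genes. TTTGAA was not in the windows of Ccnb1 and Kif20a. Of the 5 called replication genes with an entry, TTTGAA was in 1 and CCAAT in 2. The 4 promoters below show TTTGAA or its complement in capitals. They are those of Cdc20, at chr5:137255750-137256049 (minus strand), Cdk1, at chr20:19265043-19265342 (plus strand), the mitotic kinase Plk1, at chr1:186147408-186147707 (plus strand), and Top2a, at chr10:84473044-84473343 (minus strand). Plk1 stood at 1.56, 3.85, 3.78 and 0 CPM in control and 14.1, 15.4, 14.2 and 17.7 CPM in NDEA liver. A match is a description of these letters and not evidence of binding.
Cdc20: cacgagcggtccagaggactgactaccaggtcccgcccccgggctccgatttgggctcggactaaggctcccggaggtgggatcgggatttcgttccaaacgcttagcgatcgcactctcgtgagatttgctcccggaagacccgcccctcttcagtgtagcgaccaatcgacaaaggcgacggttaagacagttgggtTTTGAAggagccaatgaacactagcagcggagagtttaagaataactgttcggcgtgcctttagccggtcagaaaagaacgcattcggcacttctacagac
Cdk1: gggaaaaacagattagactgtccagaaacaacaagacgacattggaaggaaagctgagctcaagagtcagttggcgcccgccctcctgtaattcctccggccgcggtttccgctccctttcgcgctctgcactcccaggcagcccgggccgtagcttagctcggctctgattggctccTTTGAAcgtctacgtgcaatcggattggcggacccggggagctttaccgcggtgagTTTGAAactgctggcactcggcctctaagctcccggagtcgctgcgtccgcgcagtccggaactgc
Plk1: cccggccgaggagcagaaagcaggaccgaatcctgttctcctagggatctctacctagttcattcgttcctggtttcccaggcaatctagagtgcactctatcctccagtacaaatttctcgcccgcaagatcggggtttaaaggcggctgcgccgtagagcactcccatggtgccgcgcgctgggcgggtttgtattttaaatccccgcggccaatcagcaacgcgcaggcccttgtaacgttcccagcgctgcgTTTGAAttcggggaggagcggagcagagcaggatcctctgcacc
Top2a: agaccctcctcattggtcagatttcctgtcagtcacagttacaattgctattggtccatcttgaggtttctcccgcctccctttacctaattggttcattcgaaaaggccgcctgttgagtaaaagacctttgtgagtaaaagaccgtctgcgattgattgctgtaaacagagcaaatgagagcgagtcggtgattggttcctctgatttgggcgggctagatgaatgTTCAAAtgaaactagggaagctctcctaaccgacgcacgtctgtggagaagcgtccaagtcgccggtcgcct

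Structural genes rose beside those of division. Of 23 genes of the cytoskeleton, annexins and S100 proteins 10 rose and 0 fell. Vim, the intermediate filament vimentin of mesenchymal cells, stood at 33.0, 23.3, 25.8 and 20.8 CPM in control and 83.1, 62.3, 50.9 and 72.7 CPM in NDEA liver. Lgals3, a galectin of macrophages and injured epithelium, stood at 32.0, 53.2, 49.6 and 25.4 CPM in control and 83.5, 90.9, 106 and 101 CPM in NDEA liver. Stmn1, which destabilises microtubules, rose by 3.67 ± 0.99. NDEA livers lay above all controls for Vim and Lgals3. Without control 4 the count fell to 5, and to 0 in the mitochondria-adjusted fit. Among 9 tubulins 3 rose and 2 fell. Tubb6 stood at 2.50, 3.50, 0.901 and 0 CPM in control and 32.9, 29.2, 24.5 and 37.9 CPM in NDEA liver and Tuba1b at 143, 111, 115 and 106 CPM in control and 257, 282, 259.9 and 232 CPM in NDEA liver. Tubb2a changed by -0.75 ± 0.21 and Tuba4a by -0.91 ± 0.22, both with overlapping groups. Tubb2a missed the threshold without control 1, control 4, NDEA 1 or NDEA 3 (adjusted p 0.0806 to 0.13, limma-voom) and Tuba4a without NDEA 2 (0.0508). In the mitochondria-adjusted fit Tuba1b alone of the 9 was called.

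Genes that NRF2 switches on under oxidative or electrophilic stress were higher in part. Of 19 tested 8 rose and 0 fell, with a median of 0.56. The called members were Ephx1, the glutathione synthesis genes Gclc and Gclm, the quinone reductase Nqo1, the aldehyde reductase Akr7a3, Gpx2, Taldo1 and Osgin1. Gclc, the catalytic subunit of the rate-limiting enzyme of glutathione synthesis, stood at 68.1, 38.7, 45.8 and 35.0 CPM in control and 93.2, 138, 164 and 158 CPM in NDEA liver. Gpx2, a glutathione peroxidase of epithelia, stood at 1.56, 1.40, 1.62 and 6.27 CPM in control and 13.3, 26.8, 42.0 and 39.1 CPM in NDEA liver. NDEA 1 was the lowest NDEA liver for both. Other well-known members gave no call, among them Hmox1 (0.56 ± 0.23), Txnrd1 (0.47 ± 0.19) and Gsr (0.32 ± 0.35). Of the 19, 2 were called in the mitochondria-adjusted fit. The core of the antioxidant response element, TGACNNNGC on either strand, was found in 3 of the 8 called members' promoters (Ephx1, Gclm and Gpx2) and in that of Gstp1. It was in 12.1% of all promoters and 15.7% of tested genes. The promoters of Ephx1 (the start at chr13:95263068-95263367 (minus strand)), Gpx2 (chr6:101229984-101230283 (minus strand)) and Gstp1 (chr1:210769656-210769955 (minus strand)) are shown with the match in capitals.
Ephx1: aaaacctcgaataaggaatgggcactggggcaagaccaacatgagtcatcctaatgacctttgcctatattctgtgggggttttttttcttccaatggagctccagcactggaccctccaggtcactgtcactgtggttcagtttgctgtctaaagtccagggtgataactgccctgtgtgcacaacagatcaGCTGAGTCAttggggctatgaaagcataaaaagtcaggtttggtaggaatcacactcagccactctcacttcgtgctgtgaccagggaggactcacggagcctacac
Gpx2: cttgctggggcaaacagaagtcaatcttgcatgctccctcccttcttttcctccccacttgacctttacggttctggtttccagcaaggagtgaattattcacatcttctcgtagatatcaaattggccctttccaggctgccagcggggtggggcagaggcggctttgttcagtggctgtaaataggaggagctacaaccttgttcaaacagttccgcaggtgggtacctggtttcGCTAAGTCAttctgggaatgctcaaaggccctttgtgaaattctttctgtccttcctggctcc
Gstp1: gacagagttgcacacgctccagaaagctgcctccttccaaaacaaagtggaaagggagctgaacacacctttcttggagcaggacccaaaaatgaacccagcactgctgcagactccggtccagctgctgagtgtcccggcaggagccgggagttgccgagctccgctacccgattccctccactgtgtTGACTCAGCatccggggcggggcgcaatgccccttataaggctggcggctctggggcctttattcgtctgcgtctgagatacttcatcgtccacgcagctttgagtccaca

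In the glutathione S-transferase family 3 of 19 tested genes rose and 0 fell, and 3 rose under every alternative run. Besides Gstp1 these were Gstm1, at 581, 680.2, 472 and 472 CPM in control and 1892, 1997, 2050 and 2202 CPM in NDEA liver, and Gsta3, at 104, 142, 102 and 102 CPM in control and 273, 340.2, 279 and 367 CPM in NDEA liver. Gstm1 was among the 6 called genes with the largest gain in CPM. Of 11 markers of altered hepatocyte foci 5 rose (Gstp1, Ephx1, Akr7a3, Nqo1 and Aldh1a1), against 2.89% of all genes tested. NDEA livers lay above all controls for 8 of the 11, against 6.51% of all genes. Aldh1a1, a retinaldehyde and acetaldehyde dehydrogenase, stood at 206, 204, 194 and 169.6 CPM in the control livers and 677, 661, 563 and 581 CPM in the NDEA livers. The 3 separated markers without a call were Ggt1, the gamma-glutamyl transferase of foci, Cd44 and the fetal protein Afp. Ggt1 stood at 1.87, 1.40, 0 and 1.84 CPM in control and 9.02, 5.88, 27.1 and 13.9 CPM in NDEA liver (adjusted p = 0.091, limma-voom). Cd44, a hyaluronan receptor, stood at 2.81, 0, 0 and 0.738 CPM in control and 6.72, 12.3, 7.74 and 14.1 CPM in NDEA liver (adjusted p = 0.059), and Afp at 15.8, 9.63, 13.7 and 11.8 CPM in control and 20.0, 44.0, 21.2 and 28.5 CPM in NDEA liver (adjusted p = 0.06). Of the 11 markers 8 were called by limma-trend and 9 in a fit of all 16 libraries, but 3 in the mitochondria-adjusted fit.

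Xenobiotic-metabolizing P450 genes fell more often than they rose. Of 32 tested genes of families 1 to 4, 14 fell and 5 rose, with a median of -0.49. Cyp1a1 and Cyp2c13 reached 10 counts in NDEA livers only, so the filter fixed the direction of these 2. Cyp2e1, the main activator of NDEA, stood at 3887, 2888, 3434 and 3258 CPM in the control livers and 2469, 2394, 2224 and 2705 CPM in the NDEA livers, a fall of -0.46 ± 0.09 (adjusted p = 0.0018, limma-voom). Cyp1a2 stood at 2141, 1630, 1895 and 1912 CPM in the control livers and 729.8, 1018, 901 and 636 CPM in the NDEA livers. Cyp1a1, the other member of its subfamily and a target of the aryl hydrocarbon receptor, went the other way, at 0.156, 0, 0.360 and 0 CPM in the control livers and 16.7, 15.6, 8.44 and 4.95 CPM in the NDEA livers, and reached 10 counts in NDEA livers only. Both separated fully between groups, and Cyp1a1 remained a low transcript. The retinoid-metabolizing Cyp2c22 rose (1173, 754, 519.7 and 509 CPM in control and 1215, 1424, 1697 and 1291 CPM in NDEA liver), as did the P450 reductase Por (0.77 ± 0.17). Cyp2d1, Cyp2d2, Cyp2d5, Cyp2b3 and Cyp2c6v1 fell by log2 fold changes of -0.86, -0.53, -0.73, -0.68 and -0.69. After adjustment for the mitochondrial share 8 fell and 1 rose, and Cyp2e1 missed the threshold. Among 11 genes of glucuronidation and sulfonation, 3 rose and 2 fell, and the largest loss was that of the bile acid and steroid sulfotransferase Sult2a2 (8096, 5737, 6273 and 6238 CPM in control and 2723, 2946, 4068 and 3159 CPM in NDEA liver). Sult1e1, 1 of the 3 that rose, reached 10 counts in NDEA livers only, so the filter fixed its direction. The mitochondria-adjusted fit called 1 of the 11 lower and 0 higher.

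Genes that are higher in female than in male rat liver fell. The bias is set by the pattern of growth hormone secretion, which is near continuous in females and pulsatile in males, and acts through the kinase Jak2 and the factor Stat5b. All 9 tested female-biased genes fell, and all 9 had NDEA livers below every control, against 3.71% of all genes called lower and 5.92% with NDEA below. A1bg, a plasma protein gene, stood at 1127, 187, 748 and 998 CPM in the control livers and 5.66, 10.4, 30.7 and 14.7 CPM in the NDEA livers. Cyp3a9 stood at 26.2, 30.8, 24.1 and 30.6 CPM in the control livers and 0.306, 0.949, 0.422 and 2.40 CPM in the NDEA livers. Lifr, the receptor of leukaemia inhibitory factor, stood at 89.2, 33.3, 89.7 and 133 CPM in the control livers and 9.17, 2.28, 1.55 and 5.55 CPM in the NDEA livers. A1bg, Cyp3a9 and Lifr were among the 10 largest falls, with changes of -5.58, -5.08 and -4.35, although control 2 was the lowest control for A1bg and Lifr. Prlr, the prolactin receptor, stood at 559.8, 231, 531 and 423 CPM in the control livers and 101, 70.4, 106 and 78.1 CPM in the NDEA livers. Cyp2c12, the classical steroid sulfate hydroxylase of female rat liver, stood at 356, 539, 491 and 634 CPM in the control livers and 182, 182, 281 and 189.5 CPM in the NDEA livers, with NDEA 3 above the other NDEA livers. Cyp2c7 changed by -2.09 ± 0.20, the steroid reductase Srd5a1 by -1.48 ± 0.12, the repressor Cux2 by -2.24 ± 0.45 and the growth hormone receptor Ghr by -0.97 ± 0.14. Adjusted for the mitochondrial share 7 of the 9 fell, with Cux2 and Ghr no longer called.

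Of 4 tested male-biased genes 3 rose, but 2 of these, Cyp2c13 and Sult1e1, reached 10 counts in NDEA livers only, so the filter fixed their direction and the count supports no shift of the group. Cyp2c13, a P450 of male liver, had 0 counts in all 4 controls and 48.1, 17.8, 12.9 and 22.2 CPM in the NDEA livers, at least 195-fold higher by the floor of 3 counts in the group as a whole. Sult1e1, the oestrogen sulfotransferase, also had 0 counts in the controls and 17.6, 2.28, 7.59 and 5.55 CPM after NDEA, at least 65.6-fold higher. NDEA 1 was highest for both. Sult1e1 missed the threshold without any single control (adjusted p 0.0726 to 0.0954, limma-voom). Cyp3a18 stood at 40.6, 63.5, 43.4 and 34.9 CPM in control and 155, 109, 76.0 and 86.2 CPM in NDEA liver, with no overlap. Bcl6, a repressor of female genes, changed by -0.34 ± 0.52 (adjusted p = 0.79). Cyp2c11, the major P450 of male liver, had 27 counts over the 8 libraries and Stac3 had 35, so neither was tested, and Hsd3b5 had 0. Of the 3 called, 0 passed in the mitochondria-adjusted fit. STAT-type letters (TTCNNNGAA, a palindrome) were in the promoters of 2 of the 9 female-biased genes (A1bg and Prlr) and in 0 of the 3 male-biased ones, against 8.9% of all promoters.

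**Figure D4:**
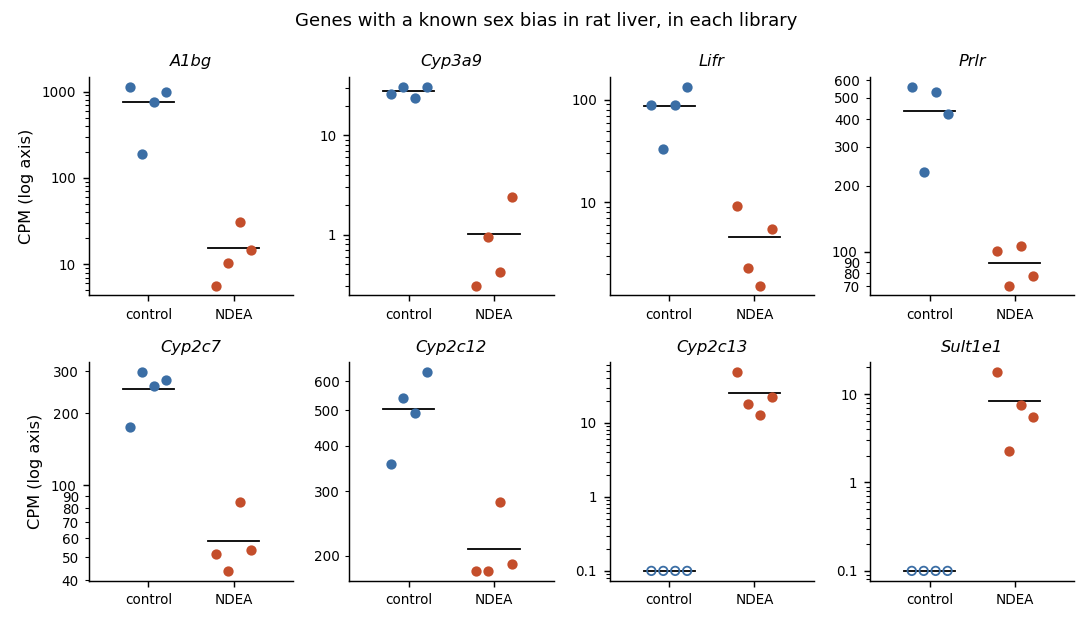
CPM on a log axis in each of 4 control (blue) and 4 NDEA livers (red) for 6 female-biased genes (A1bg to Cyp2c12) and the male-biased Cyp2c13 and Sult1e1, with a line at each group's mean. Open circles at the bottom mark libraries with 0 counts, drawn at 0.1 CPM.

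In the wider growth hormone, prolactin and insulin list of 17 genes, 6 fell and 1 rose. Igf1, the growth factor that growth hormone induces in liver, stood at 1345, 1466, 1264 and 1681 CPM in control and 1094, 1020, 1078 and 847 CPM in NDEA liver. Its partners Igfals, Igfbp4 and Igfbp1 fell by log2 fold changes of -0.61, -0.51 and -0.85. Igf2r, the receptor that clears Igf2, rose by 0.84 ± 0.16. The feedback inhibitors Socs2 (-0.72 ± 0.31) and Cish (0.42 ± 0.44) and the factor Stat5b (1.06 ± 0.73) were not called. Of 26 liver transcription factors and nuclear receptors 2 fell and 0 rose (7.7% called, near the 6.6% of all genes tested). Hnf4a, which maintains hepatocyte identity, stood at 429.6, 323, 336 and 306 CPM in control and 236, 200.3, 203 and 190.2 CPM in NDEA liver. Onecut1, also called HNF6, stood at 206, 356, 295 and 447 CPM in control and 200.4, 174, 179.5 and 84.7 CPM in NDEA liver. Groups did not overlap for either. In the mitochondria-adjusted fit 1 of the 17 and 1 of the 26 were called lower, and neither Hnf4a nor Onecut1 was among them.

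Zonal genes of the lobule changed in both zones. Of 15 pericentral genes 2 rose and 6 fell, and of 19 periportal genes 2 rose and 6 fell. Rhbg, an ammonium transporter of the pericentral hepatocyte, rose from 5.15, 6.30, 0.541 and 2.95 to 36.2, 49.4, 54.6 and 57.6 CPM. Oat, an ornithine aminotransferase of the same zone, fell (373, 272, 339.5 and 372 CPM in control and 145, 166, 162 and 194 CPM in NDEA liver), as did Cyp1a2, Cyp2e1 and the Wnt receptor Fzd4 (-1.83 ± 0.34). The pericentral Notum was also called lower, with log2 fold changes of -1.175 to -0.842 over the alternatives. It missed the threshold without NDEA 2 (adjusted p = 0.0527, limma-voom) or NDEA 4 (0.0584) and in the mitochondria-adjusted fit (0.338). Glul and Axin2, of the same zone, changed by 0.01 ± 0.14 and -0.26 ± 0.45 and were not called. Sds, the periportal serine dehydratase, stood at 2.97, 22.1, 2.52 and 2.21 CPM in the control livers and 128, 89.6, 196 and 79.3 CPM in the NDEA livers, and control 2 stood above the other controls. Hal, the periportal histidase, stood at 197, 189, 190.1 and 242 CPM in control and 63.7, 92.3, 98.0 and 97.9 CPM in NDEA liver. The periportal Pck1 (0.25 ± 0.15), Cps1 (0.06 ± 0.10) and Gls2 (0.03 ± 0.15) were not called. Within each zone some genes moved up and others down. The mitochondria-adjusted fit called 2 genes of each zone lower and 2 of each higher.

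Of 23 tested genes of bile acid synthesis and transport 11 fell and 1 rose (median -0.50). The uptake transporters Slc10a1 and Slco1b2 stood at 769, 721, 674 and 701 CPM in control and 443, 378, 497 and 393 CPM in NDEA liver, and at 2185, 2723, 2524 and 2699 CPM in control and 1104, 1106, 1353 and 1271 CPM in NDEA liver. The bile salt export pump Abcb11 stood at 403, 405, 367 and 386 CPM in control and 236, 175, 219 and 206 CPM in NDEA liver. Groups did not overlap for these 3, each of which was called under every alternative. Akr1d1, a reductase of bile acid and steroid synthesis, rose (355, 337, 403 and 285 CPM in control and 844, 827, 826 and 824 CPM in NDEA liver). Cyp7a1, the rate-limiting enzyme of bile acid synthesis, changed by 0.58 ± 0.19 (adjusted p = 0.07, limma-voom). The mitochondria-adjusted fit called 7 of the 23 lower.

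Of 17 fatty acid and triglyceride synthesis genes 6 fell and 2 rose. Dgat2, which makes triglyceride, stood at 1043, 903, 939 and 853 CPM in control and 377, 407, 509.8 and 468 CPM in NDEA liver. Acacb, an acetyl-CoA carboxylase, stood at 154, 161, 171 and 229 CPM in control and 90.3, 73.8, 102 and 76.0 CPM in NDEA liver. Acly, Fasn, Fads1 and Thrsp fell by 0.95, 0.95, 0.62 and 0.99 on the log2 scale. Lpin1 and Lpin2, phosphatidate phosphatases, rose by 1.24 ± 0.31 and 1.05 ± 0.25, but Lpin1 had overlapping groups and missed the threshold without control 1 (adjusted p = 0.0887, limma-voom) or control 3 (0.055). After adjustment for the mitochondrial share 2 of the 17 fell, and 0 rose. Among 21 cholesterol genes 7 fell and 1 rose. The sterol enzyme Tm7sf2 stood at 625, 598, 506 and 569 CPM in control and 380.4, 279, 268 and 235 CPM in NDEA liver. Sc5d, another, changed by -0.74 ± 0.11, and the early enzyme Hmgcs1 (-0.32 ± 0.14) was not called. Without control 4 the number that fell was 4, and without NDEA 2 it was 3. Adjusted for the mitochondrial share it was 2. Of 25 genes of fatty acid oxidation Fabp1 alone was called (4.0%, against 6.6% of all genes tested). Fabp1, a lipid carrier, fell (8413, 5365, 7207 and 6781 CPM in control and 3641, 3258, 3162 and 2457 CPM in NDEA liver).

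Amino acid and glucose genes moved in both directions. Of 31 genes of the urea cycle and amino acid breakdown 4 rose and 7 fell, among them Hpd, an enzyme of tyrosine breakdown (3012, 2589, 2749 and 3199 CPM in control and 1812, 1894, 1959 and 1838 CPM in NDEA liver). In the one-carbon and sulfur amino acid list of 22, Csad, the decarboxylase of taurine synthesis, was the sole rise (40.0, 109.7, 46.5 and 83.9 CPM in control and 479, 427, 292 and 385 CPM in NDEA liver), and Gnmt, a glycine methyltransferase, was 1 of 3 that fell (-0.89 ± 0.16). After adjustment for the mitochondrial share 1 of the 31 rose and 5 fell, and of the 22 Csad alone was called. Of 24 genes of gluconeogenesis and glycolysis 4 fell and 0 rose, among them Pc, pyruvate carboxylase (157, 177, 172 and 128 CPM in control and 107, 73.8, 96.5 and 85.4 CPM in NDEA liver). That count was 2 without control 1, control 3, control 4 or NDEA 4, and 0 in the mitochondria-adjusted fit. Of 14 circadian clock genes 0 were called by limma-voom, a list too short to set apart from the 6.6% of all genes called. Bhlhe40 had the lowest estimate (-2.12 ± 1.14).

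Among plasma protein transcripts more fell than rose. Apolipoproteins and lipoprotein enzymes fell in 13 of 19 and rose in 1. That rise was Apoa1, the main protein of high-density lipoprotein, at 3111, 2834, 2886 and 2431 CPM in control and 5267, 4699, 4635 and 4197 CPM in NDEA liver. Apoa2, the other main protein of the same particle, fell (5182, 4470, 5547 and 5223 CPM in control and 3147, 2734, 2769 and 2332 CPM in NDEA liver). Both separated the groups fully in opposite directions, and both were called under every alternative. Of 32 complement and coagulation genes 11 fell and 0 rose, among them F7 (-1.02 ± 0.17), C8g (-1.01 ± 0.15) and F12 (-0.71 ± 0.10). Of 15 acute phase genes 6 fell and 1 rose. Ceruloplasmin, Cp, stood at 1867, 1300, 1585 and 1501 CPM in control and 796, 693, 778 and 726 CPM in NDEA liver, and serum amyloid P, Apcs, at 1774, 1387, 1572 and 1741 CPM in control and 924, 714, 829 and 784 CPM in NDEA liver. The fibrinogen genes Fga, Fgb and Fgg had changes of 0.18, -0.06 and -0.14 and were not called. The carrier Ttr rose (10260, 10120, 9074 and 10640 CPM in control and 14660, 13760, 13310 and 12450 CPM in NDEA liver). After adjustment for the mitochondrial share 3 apolipoprotein genes, 0 complement genes and 3 acute phase genes fell. Alb, the most abundant messenger and the largest loss in CPM, stood at 95250, 71990, 88290 and 78490 CPM in control and 77260, 67110, 72070 and 63650 CPM in NDEA liver, with overlapping groups. Its change was -0.25 ± 0.07 (adjusted p = 0.031, limma-voom). It missed the threshold without control 1, control 3, NDEA 2, NDEA 3 or NDEA 4 (0.0581 to 0.138) and its sign turned in the mitochondria-adjusted fit.

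MHC class II transcripts rose. Of 6 tested 5 rose under every alternative run: RT1-Da, RT1-Db1, RT1-Ba, RT1-Bb and the invariant chain Cd74. RT1-Da stood at 177, 205, 217 and 156 CPM in the control livers and 444, 503, 448 and 488 CPM in the NDEA livers. Cd74 stood at 191, 182, 168 and 172 CPM in control and 342, 436, 445 and 463 CPM in NDEA liver. NDEA livers were separated from controls for all 5. Their activator Ciita changed by 2.17 ± 1.41 (adjusted p = 0.44, limma-voom). Of 22 interferon and class I genes 2 rose (9.1% called, near the 6.6% of all genes tested), Psmb9 (0.57 ± 0.13) and Tap1 (0.82 ± 0.25). Tap1 missed the threshold without control 2, control 3, control 4, NDEA 1, NDEA 3 or NDEA 4 (adjusted p 0.0543 to 0.195, limma-voom). In the mitochondria-adjusted fit 0 of the 22 were called. The chemokine Cxcl9 rose (42.3, 50.2, 42.9 and 31.0 CPM in control and 59.8, 72.5, 94.9 and 96.4 CPM in NDEA liver), while Cxcl12, which guides haematopoietic cells, fell (278, 207, 261 and 327 CPM in control and 115, 112, 76.7 and 85.1 CPM in NDEA liver), and of these 2 Cxcl12 alone was called after adjustment for the mitochondrial share.

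Markers of the cells a liver holds were checked beside these results. Hepatocyte markers summed to 104605 to 132448 CPM in control and 97161 to 117220 CPM in NDEA livers over 13 tested genes, mostly from Alb. Of the 13, 6 fell (Alb, Asgr1, Asgr2, Fabp1, Hnf4a and Tat) and 3 rose (Apoa1, Ttr and Serpina1), with a median of -0.24. The mitochondria-adjusted fit called 1 of the 13 lower and 2 higher. Markers of stellate cells and fibroblasts (13 of 15 tested) summed to 357 to 453.5 CPM in control and 554 to 645 CPM in NDEA livers, so the groups did not overlap. Of these 3 rose, Vim, Col3a1 (230.5, 194, 151 and 132 CPM in control and 287, 286, 298 and 324 CPM in NDEA liver) and Dcn (1.16 ± 0.33), while Acta2 (0.90 ± 0.57) and Col1a1 (0.74 ± 0.24) were not called and Col1a2 was listed at 0. Dcn missed the threshold without each library but NDEA 3 (adjusted p up to 0.113, limma-voom). The list did not move as a whole, since 10 of its estimates were above 0 and 3 below. NDEA livers lay above all controls for 4 members and below all controls for 1, Colec11, which was not called. Macrophage markers summed to 964 to 1061 CPM and 1013 to 1180 CPM, which overlap. Gpnmb, a marker of lipid-laden macrophages, rose (20.5, 17.3, 27.8 and 21.8 CPM in control and 41.1, 84.3, 77.2 and 75.1 CPM in NDEA liver), Vsig4 and Cd14 fell (-0.94 and -1.26), and the Kupffer cell gene Clec4f changed by -0.03 ± 0.16. Marco, another marker of this list, also rose (0.64 ± 0.17), with overlapping groups, so that 2 of 16 tested rose and 2 fell. Marco missed the threshold without control 1, control 3, control 4, NDEA 1 or NDEA 2 (adjusted p 0.0533 to 0.0985, limma-voom). Vsig4 missed the threshold without NDEA 2 (0.066) or NDEA 4 (0.0531). Of 2 tested dendritic markers Irf8 rose (47.5, 31.3, 38.8 and 24.9 CPM in control and 60.2, 77.8, 60.6 and 83.3 CPM in NDEA liver) and Itgae was not called (-0.43 ± 0.64), while Ccr7 was at 0 and 8 others, among them Flt3 and Clec9a, had 47 counts or fewer in all. Of the endothelial (11 tested), T and NK cell (5), B and plasma cell (2), neutrophil (2), erythroid (6) and cholangiocyte (8) lists 0 members were called by limma-voom. Each is too short to set apart from the 6.6% of all genes called. In the cholangiocyte and progenitor list Epcam and Sox9 had NDEA livers above all controls without a call, as did 1 T and NK cell gene. Of these 8 cholangiocyte estimates 5 were above 0 and 3 below (median 0.91), and Krt19 was listed at 0. The part of these cells in the rises of MHC class II and cytoskeleton genes was not tested. Of 22 collagen and matrix genes 4 rose and 1 fell, and 2 rose without control 1, control 4, NDEA 2 or NDEA 4. Lox, 1 of the 22, reached 10 counts in NDEA livers only, so the filter fixed its direction. Col3a1, Col4a1 and Fbn1 were among the 4 that rose. All 3 missed the threshold in the mitochondria-adjusted fit (adjusted p = 0.0971, 0.722 and 0.606, limma-voom). The mitochondria-adjusted fit called 1 matrix gene higher, and 0 of the stellate, macrophage and dendritic markers.

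Among the remaining large changes, Rup2, a urinary protein gene (chromosome 8, position 41657566), stood at 2562, 2593, 2766 and 3348 CPM in the control livers and 568, 302, 246 and 232 CPM in the NDEA livers. A pair of related records on chromosome 8 fell with it. LOC680406, annotated as similar to RUP-2 (chromosome 8, position 37702231), stood at 1756, 1547, 1855 and 2202 CPM in control and 225, 109.7, 104 and 97.0 CPM in NDEA liver, and had the smallest adjusted p of all genes. AABR07069878.1 (chromosome 8, position 41701850) stood at 122, 140, 149.9 and 180.3 CPM in control and 18.9, 14.1, 11.9 and 12.4 CPM in NDEA liver. These 3 genes may share reads. Cpa1, a carboxypeptidase best known from the exocrine pancreas, stood at 283, 208, 179 and 355 CPM in the control livers and 4.89, 9.11, 66.1 and 9.89 CPM in the NDEA livers. NDEA 3 stood above the other NDEA livers for Cpa1. The pancreatic enzymes Prss1, Prss2, Pnlip, Cela2a, Cela3b, Amy2a3, Ctrb1, Try5 and Clps had 0 counts in all 8 livers. The transmitter receptor subunit Gria3 rose from 1.72, 0.875, 1.62 and 0.922 to 30.9, 18.6, 26.0 and 32.1 CPM, and Rgs16, a regulator of G-protein signalling, stood at 158, 100.1, 129 and 88.5 CPM in control and 37.3, 44.8, 16.4 and 13.5 CPM in NDEA liver. Of the immediate early and heat shock genes 3 of 18 rose, Egr1 (13.6, 36.4, 7.03 and 7.74 CPM in control and 150.1, 297, 73.7 and 92.9 CPM in NDEA liver), Jun (1.36 ± 0.23) and Ier2 (1.12 ± 0.25), and Jun alone in the mitochondria-adjusted fit.

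**Figure D5:**
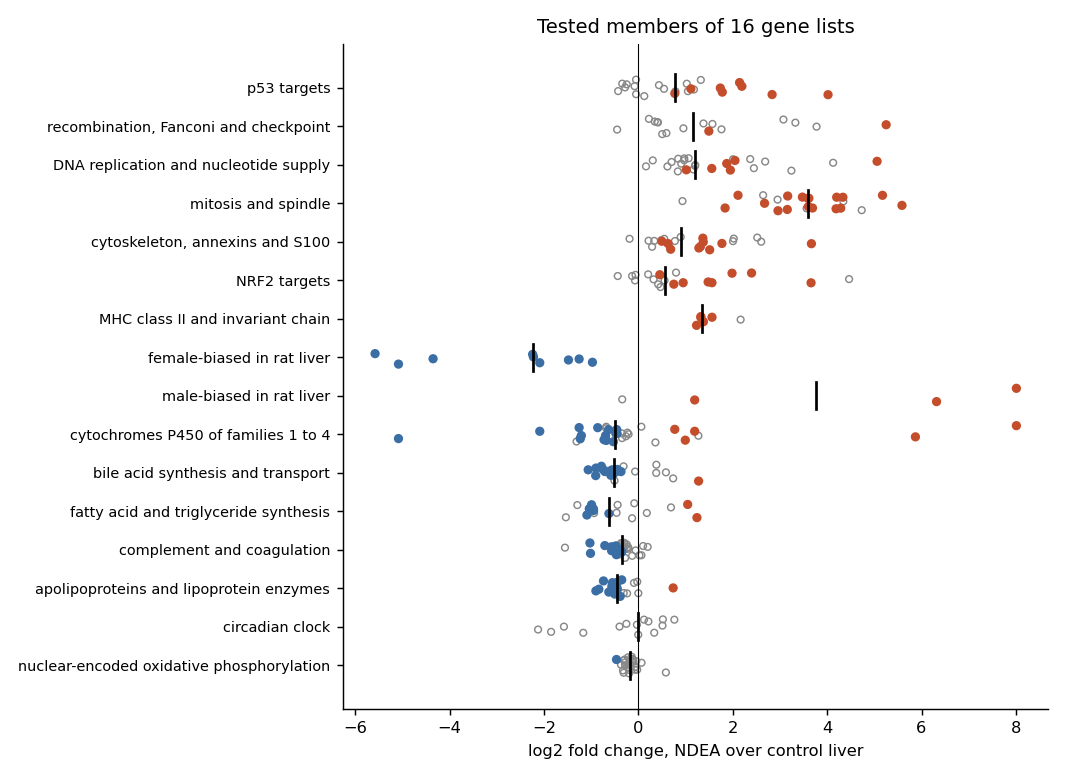
Log2 fold change (NDEA over control) of each tested member of 16 gene lists, with called genes filled (red higher, blue lower), others open and a bar at each list's median. Female-biased genes all lie left of 0 and mitosis genes all right of it, clock genes (median -0.02) lie on both sides, and 24 of 26 nuclear oxidative phosphorylation genes (median -0.18) lie left of 0.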

How the data were processed

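RNA from 8 livers, 4 control and 4 NDEA, was measured by sequencing the 3' ends of transcripts with a QuantSeq kit, per the labels' protocols, which name no molecular identifiers. The authors deposited 1 table of raw counts, whole reads per gene. Its unit was recorded as other than plain counts because the deposited table is damaged: 15579 of 32635 lines were held as quoted cells and 12 records were broken over 2 lines. After rejoining, 32623 records were read, and 16313 unnamed group totals in the deposited table matched the sums. STAR and DESeq2 are named in the submitters' processing notes, with no version. Not given in the sources used here are the build, the annotation and the counting tool. Positions are those of the table.

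Genes with at least 10 counts in 4 or more libraries were kept. Scaling used trimmed means of M values (trims of 0.3 and 0.05), and counts were fitted with limma-voom (R 4.3.3, limma 3.58.1) with treatment as the sole term and a prior of 0.5 counts. P-values were adjusted by Benjamini-Hochberg over 9757 genes. The method was tested on simulated data. The totals of 5000844 to 6863592 counts limit the precision of genes near the filter, and floors of 3 counts cover counting error only.

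The gene lists (56, with 1021 of 1084 symbols matched), their members and the tests were chosen with earlier results of these data known, so a list is described by its called members and median, with no set test. Genes named are Cdkn1a, Mgmt, Gstp1 and Ephx1, the 10 largest rises and falls (called, average log2 CPM of at least 2, established symbol, no overlap), the 6 largest gains and losses of CPM, up to 3 called members of each list in each direction, and all sex-biased and zonal genes. Others are examples named after their values were seen. Some genes this rule would name are not reported here. Replicate numbers do not pair control and NDEA livers. Alternatives covered scaling, filters, tests, covariates and left-out libraries. Promoter sequences come from RefSeq (GRCr8), matched by symbol, and any start of a gene counted.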

Additional observations from a re-analysis of the deposited data

Results flagged for a closer look

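Within the 4 livers of a group, 14 of 358 sets of values had a liver whose gap to its nearest neighbour passed Dixon's 95% critical value for 4 samples. Chance flags about 1 in 20 such groups.

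NDEA 1 was the highest NDEA liver for Apoa4 (187.8 CPM, others 142 to 147.5 CPM), Apoa5 (749.8 CPM, others 483 to 499.1 CPM), Asgr1 (580.3 CPM, others 478 to 494 CPM) and Akr1d1 (843.6 CPM, others 824 to 827 CPM). It was the lowest for Hal, at 63.73 CPM against 92.3 to 98.0 CPM. NDEA 3 was the highest NDEA liver for Cpa1, at 66.1 CPM against 4.89 to 9.89 CPM, and for Cyp2c12, at 281.4 CPM against 182 to 189.5 CPM.

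Among controls, control 2 was the highest for Sds, at 22.05 CPM against 2.21 to 2.97 CPM, and for Gsta3, at 141.6 CPM against 102 to 104.5 CPM. Control 1 was the highest for the metallothionein Mt2A, at 400.9 CPM against 194 to 213 CPM, and the lowest for the immunoglobulin receptor Pigr, at 327.3 CPM against 582 to 614 CPM. Control 3 was the highest for Mgmt (36.58 CPM, others 26.6 to 28.0 CPM) and the lowest for Tuba4a (75.33 CPM, others 117 to 125 CPM). Control 4 was the highest for Hal, at 241.5 CPM against 189 to 197 CPM.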

How the results depend on the processing

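With the mitochondrial share as a covariate 151 genes were called, 55 higher and 96 lower, of which 103 changed at least 2-fold and 73 were list members, and 137 were shared with the 644. The log2 fold changes of Alb (0.039), the mitochondrial ribosomal record AY172581.24 (-0.152), Lpin1 (-0.027) and Mt-nd6 (-0.016) changed sign there. The share differs between the groups, so that fit cannot fully tell it apart from NDEA. With library totals alone 239 genes fell, and in a fit of all 16 libraries 237 fell. Without a filter on low counts 418 genes were called and at least 2-fold. Without control 4 and NDEA 3 together 186 rose. Leaving out each library in turn gave 435 to 591 called, 165 to 255 higher, 265 to 370 lower, 208 to 290 at least 2-fold and 183 to 226 list members. The lowest number higher was 165 without control 3, and it was 185 without control 1 or control 4. The cause of these differences was not tested.

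With the replicate number as a block 737 genes were called, 314 higher and 423 lower. Livers with the same number did not deviate together (correlations -0.019 to 0.011), so the numbers do not pair the samples. Of 156 named genes that were called, 61 were called under every alternative that tested them. Counts near the filter of 10 limit what could be detected for low transcripts such as Ggt1 and Cd44.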

Other observations

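Of the 644 called genes, 413 were in none of the 56 lists, and those named here were chosen after their values were seen. Rps27l, a p53 target absent from the list used above, stood at 206, 213, 175 and 189 CPM in control and 549, 552, 452 and 542 CPM in NDEA liver. Spink1l, a trypsin inhibitor-like gene, stood at 24.1, 22.2, 31.5 and 23.6 CPM in control and 278, 151, 333 and 220 CPM in NDEA liver. Both separated the groups fully. Further genes of chromosome condensation and kinetochores rose, namely Smc4 (1.55 ± 0.18), Smc2 (1.60 ± 0.27) and Spc24 (2.69 ± 0.54). Hsd11b1, which regenerates active glucocorticoid, stood at 25.6, 55.0, 17.5 and 44.2 CPM in control and 222, 186, 163 and 172 CPM in NDEA liver, and the steroid hydroxylase Cyp17a1 at 19.4, 15.4, 7.21 and 13.3 CPM in control and 76.0, 68.7, 50.8 and 30.9 CPM in NDEA liver. Slc22a8, an organic anion transporter, had 0 counts in all controls and was at least 49.3-fold higher after NDEA (by the floor of 3 counts used above). It passed the filter through NDEA livers only, which fixed its direction.

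Among genes outside the lists that fell, Cavin3, a caveolar protein, stood at 569, 466, 422 and 498 CPM in control and 167, 141, 204 and 165 CPM in NDEA liver. Akr1b7, an aldo-keto reductase, stood at 264, 204, 245 and 304 CPM in control and 40.2, 42.1, 64.1 and 82.9 CPM in NDEA liver. Vkorc1, the vitamin K reductase that serves clotting factors, stood at 580, 419, 497 and 542 CPM in control and 262, 284, 274 and 218 CPM in NDEA liver, and the glutathione peroxidase Gpx1 at 3836, 3736, 4319 and 4275 CPM in control and 2616, 2548, 3096 and 2588 CPM in NDEA liver. Gpx1 thus fell by 0.57 on the log2 scale while Gpx2, at a far lower level, rose by 3.66. Acsl1, the main long-chain acyl-CoA synthetase of liver, fell by 0.89.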
